A study of Mus musculus with 24 samples.

Results

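Gbp2, Gbp3 and Gbp7 encode guanylate-binding proteins (GBPs), and Irgm1 and Igtp encode immunity-related GTPases (IRGs), 2 families that cells make in response to interferon. These 5 of the 12091 genes in the table were selected on their measured values in the 4 experiments described here. Their values in those experiments are therefore a description. Counts of members past a threshold stand beside the share of all genes past it, and support nothing. All 5 symbols were found, each with 1 gene identifier.

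The series measured bulk RNA by sequencing in mouse breast cancer models with and without inhibition of pleiotrophin (PTN), a secreted growth factor that binds heparin. It held 24 samples in 8 groups of 3, in 4 experiments that were each compared on their own. In the 4T1 experiment, cells of a murine triple-negative breast cancer line were implanted orthotopically into female BALB/c mice aged 8 weeks, which then received 3B10, a monoclonal antibody against PTN, or the isotype control C44 at 15 mg/kg. In the PyMT experiment, FVB/N mice with a polyoma middle T transgene driven by the MMTV promoter received 3B10 or C44 at 15 mg/kg from 8 weeks of age, and tumors were harvested at 12 weeks. E0771 is a mammary adenocarcinoma line from C57BL/6 mice, and E0771-LG was derived from a lung metastasis of it. Both lines carried either a single short hairpin construct against Ptn (E0771shPTN and E0771-LGshPTN) or a control construct in the same vector that targets EGFP (E0771shCtrl and E0771-LGshCtrl), and were selected in puromycin for 6 weeks. Each of these was a separately selected cell population, so the effect of the hairpin and any difference between populations cannot be told apart. The study calls its replicates biological, and the labels do not say whether those of the cells were separate cultures.

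The 18 libraries other than 4T1 held 15.63 to 21.12 M reads on genes, with a median of 18.24 M, and their values are log2 counts per M reads (CPM, with M for mega). The depth of the 4T1 libraries is unknown. Their log2 values declined with gene length relative to the other samples, so they are on a scale per length, and their levels are compared only with one another. Where 4T1 is set beside other samples, differences within 4T1 are used. The 3 PyMT C44 libraries, at 18.76 to 19.25 M reads, were all larger than the 3 PyMT 3B10 libraries, at 16.26 to 18.44 M, and the part of this in the PyMT results was not tested. In the E0771 experiment the libraries held 16.61 to 20.42 M reads in shCtrl and 15.63 to 19.32 M in shPTN. In E0771-LG they held 17.3 to 19.59 M in shCtrl and 17.43 to 21.12 M in shPTN.

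Interferons bind receptors that activate the kinases Jak1, Jak2 and Tyk2, and these act on transcription factors that enter the nucleus. Type I interferon leads to binding at interferon-stimulated response elements, by a complex that includes Stat2 and Irf9, and interferon-gamma to binding at gamma-activated sites. GBPs and IRGs are made in response, bind GTP, and assemble on vacuoles that hold pathogens, where they break the membrane. Irgm1 and Igtp, also called Irgm3, are regulatory IRGs, which sit on the cell's own membranes and hold the effector IRGs such as Iigp1 inactive there. In a breast tumor, cancer cells, leukocytes and stromal cells can all make these proteins, and T cells and NK cells are the main sources of interferon-gamma.

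The promoters are shown because the 5 genes belong to families induced by interferon and hold the same short match near their starts. All 5 members were matched in the RefSeq promoter table of build GRCm38.p6, with 6 starts in all, since Gbp3 has 2. Each line holds bases upstream of a start on the strand of the gene, 5′ to 3′. Where the match lies in an annotated exon, as for Gbp2 and Irgm1, only 30 bases around it are printed. Capitals mark matches on either strand to GAAA, any 2 bases and GAAA, the core of an interferon-stimulated response element, or to TTCNNNGAA, the core of a gamma-activated site. The stretches are chr3:142620594-142620623 on the plus strand for Gbp2, chr3:142559876-142560025 (plus) for Gbp3, chr3:142530186-142530335 (plus) for Gbp7, chr11:48871428-48871457 (minus) for Irgm1 and chr11:58199406-58199555 (plus) for Igtp.

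Gbp2: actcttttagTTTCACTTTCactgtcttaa
Gbp3: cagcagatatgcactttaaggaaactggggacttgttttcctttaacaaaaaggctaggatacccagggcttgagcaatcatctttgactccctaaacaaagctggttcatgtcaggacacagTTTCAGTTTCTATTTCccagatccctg
Gbp7: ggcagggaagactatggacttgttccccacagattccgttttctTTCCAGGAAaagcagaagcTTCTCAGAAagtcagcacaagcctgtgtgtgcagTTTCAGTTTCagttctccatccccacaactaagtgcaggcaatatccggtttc
Irgm1: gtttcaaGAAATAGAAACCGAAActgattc
Igtp: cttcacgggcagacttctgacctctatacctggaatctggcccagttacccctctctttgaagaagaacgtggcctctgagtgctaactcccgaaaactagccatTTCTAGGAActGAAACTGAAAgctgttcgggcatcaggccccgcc

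The response element core was found in the 250 bases before a start of all 5 members. The match lay 49 bases before the RefSeq start in Gbp2, 43 in Gbp7 and 24 in Igtp. The RefSeq starts of Gbp2, Gbp3 and Irgm1 lie inside the gene intervals given below, which come from GENCODE. Gbp3 had overlapping matches at 35 and 29 bases, and Irgm1 at 20 and 14, each pair merged into 1 run of capitals. The second Gbp3 start had no match. Of all 32851 promoter windows of the same length, 978 held this motif (2.98%). Among other GBP and IRG genes, 6 were matched, and 4 of these held it too, Gbp2b, Irgm2, Tgtp1 and Tgtp2. TTCNNNGAA was found in Gbp7, at 97 and 78 bases, and in Igtp, at 36 bases, and in 2306 of all windows (7.02%). Of the same 6 other genes, 3 held it, Irgm2, Tgtp1 and Tgtp2. Both motifs stood together in 109 windows (0.332%), those of Gbp7 and Igtp among them. A match is a description of letters and does not show that a factor binds there.

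On build GRCm38, the GBP members lie side by side on the plus strand of chromosome 3. Gbp7 (ENSMUSG00000040253) spans 142530342 to 142550149, Gbp3 (ENSMUSG00000028268) 142560026 to 142573209, and Gbp2 (ENSMUSG00000028270) 142620602 to 142638008. Their relative Gbp2b lies between Gbp3 and Gbp2. Irgm1 (ENSMUSG00000046879) lies on the minus strand of chromosome 11, at 48861968 to 48871683. Igtp (ENSMUSG00000078853) lies on the plus strand of the same chromosome, at 58199556 to 58207591. Its interval falls within that of Irgm2, on the same strand from 58199618 to 58222782 except for its first bases, so reads at Igtp may be shared with Irgm2. GBP paralogs are alike in sequence, and how reads that align to several genes were counted is not stated.

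In each of the 4 control groups, 1 library had the highest value for all 5 members. These were replicate 2 of 4T1 C44, E0771shCtrl and E0771-LGshCtrl, and replicate 3 of PyMT C44. The gap to the other replicates was widest in E0771-LGshCtrl, for Gbp7 and Igtp above all, and values without its replicate 2 are given where they differ most.

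Ptn itself was measured in every sample. In E0771shCtrl it stood at 2.90, 2.18 and 2.28 log2 CPM, and in E0771shPTN at −0.63, 0.25 and 0.53. In E0771-LGshCtrl it stood at 3.65, 4.51 and 3.74 log2 CPM, and in E0771-LGshPTN at 1.42, 0.98 and 1.38. In each line the groups stood wholly apart. Ptn fell by 2.40 on the log2 scale in E0771 (SE 0.37, limma adjusted p 0.00159) and by 2.71 in E0771-LG (SE 0.28, limma adjusted p 6.3e-05), or by 2.43 without E0771-LGshCtrl replicate 2. In the PyMT tumors Ptn was 2.80, 2.73 and 3.42 log2 CPM in C44 and 3.28, 2.95 and 4.22 in 3B10. In 4T1, where the lowest value of each sample was about −0.98, Ptn was at −0.19, −0.65 and −0.12 log2 units in C44 and −0.76, 0.86 and 0.37 in 3B10.

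**Figure D1:**
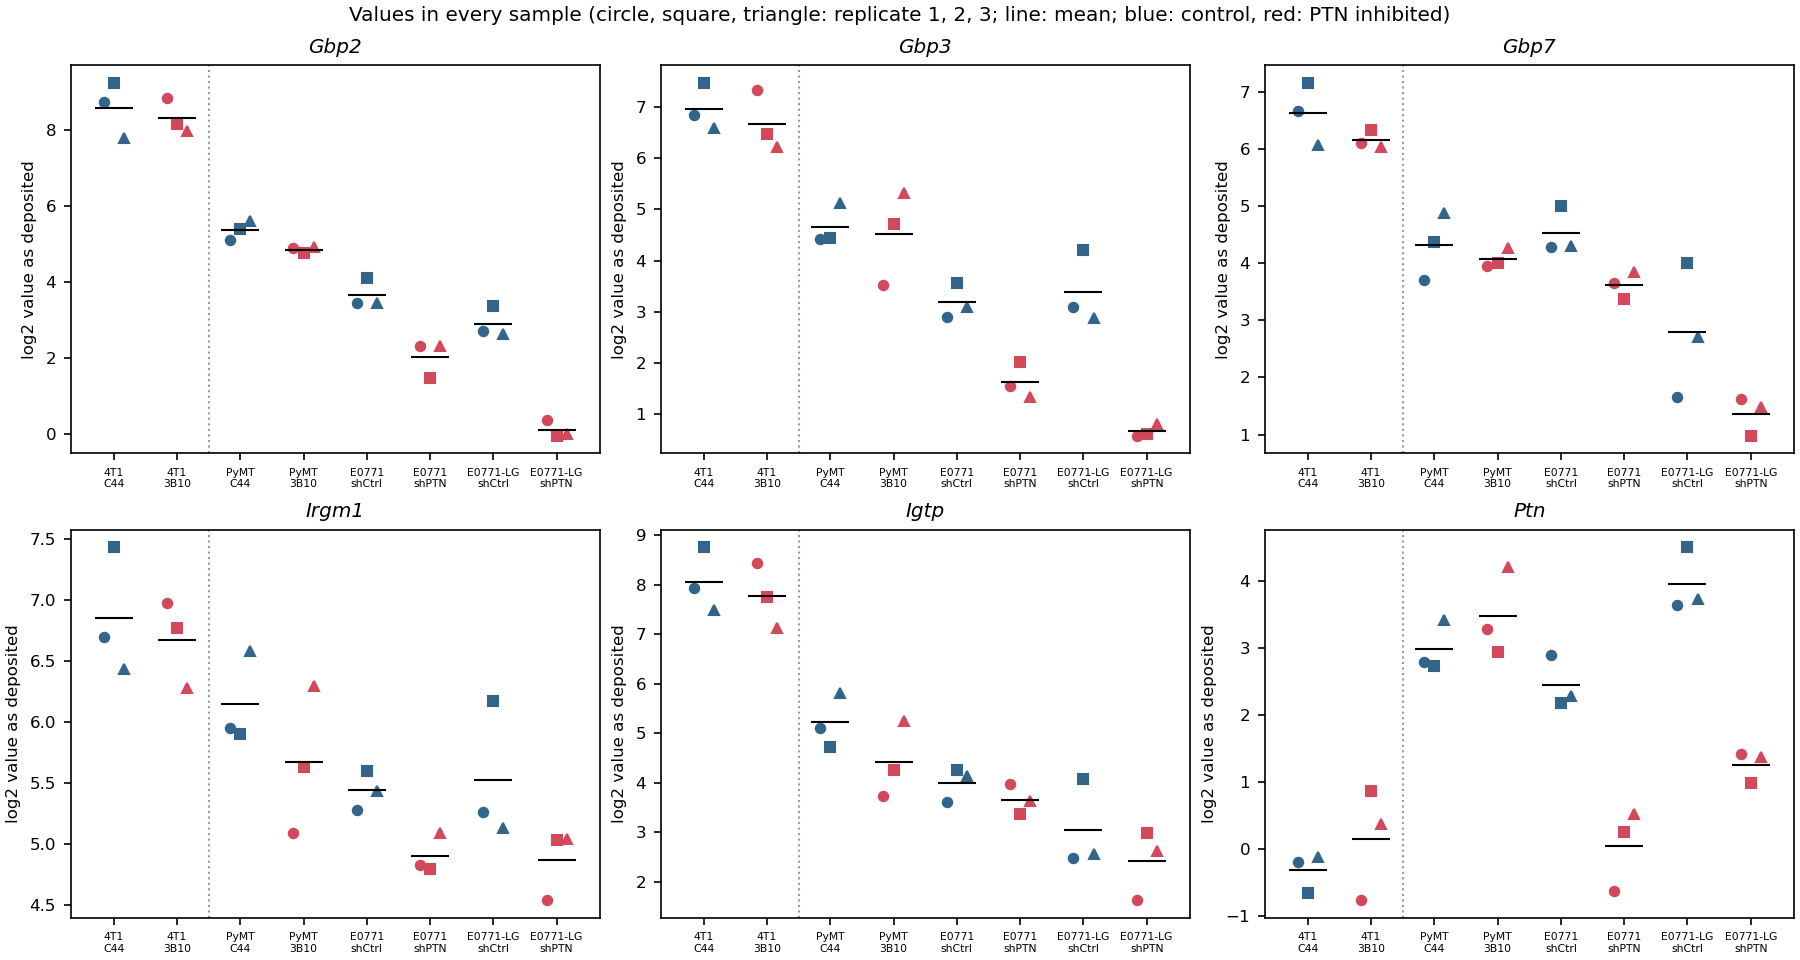
Level of the 5 GTPase genes and of Ptn in each of the 24 samples, in log2 CPM, or in log2 units per length for 4T1 (left of the dotted line), with circles, squares and triangles for replicates 1, 2 and 3, lines for group means, blue for control and red for PTN-inhibited samples. Gbp2 and Gbp3 in E0771-LGshPTN sit between −0.04 and 0.81, below all other samples measured in log2 CPM.

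The E0771 comparison asked how lower Ptn acted on cultured tumor cells, without host leukocytes. All 5 members were lower in E0771shPTN on average, and 4 of them, all but Igtp, had no overlap between the groups. Gbp2 was 3.46, 4.11 and 3.46 log2 CPM in shCtrl and 2.31, 1.48 and 2.31 in shPTN. Its 189, 351 and 182 reads stood against 95, 50 and 77. Every shPTN value lay more than 1 log2 unit below every shCtrl value, and the log2 difference was −1.64 (SE 0.27), to 32.1% of control. Gbp3 was 2.89, 3.56 and 3.10 log2 CPM in shCtrl and 1.55, 2.01 and 1.34 in shPTN. Again all of the knockdown samples were below all of the controls, with a log2 difference of −1.55 (SE 0.26), to 34.1% of control. Among the groups measured in log2 CPM, Gbp7 had its highest mean in E0771shCtrl. It was 4.28, 5.01 and 4.31 log2 CPM in shCtrl and 3.65, 3.37 and 3.84 in shPTN. The groups did not overlap, and the log2 difference was −0.92 (SE 0.21), to 52.9% of control.

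The regulatory IRGs differed less. Irgm1 was 5.28, 5.60 and 5.43 log2 CPM in E0771shCtrl and 4.83, 4.79 and 5.09 in E0771shPTN. Its groups were narrow and did not overlap, with a log2 difference of −0.54 (SE 0.13), to 68.9% of control. Igtp was 3.60, 4.26 and 4.14 log2 CPM in shCtrl and 3.97, 3.37 and 3.63 in shPTN. These values overlapped, since shPTN replicate 1 lay above shCtrl replicate 1, and the log2 difference was −0.34 (SE 0.21), to 78.8% of control. By the limma fit, 4 of 5 members passed an adjusted threshold of 0.05 toward lower levels, as 11.7% of the 10394 genes tested did. In a joint fit of 12 samples, 2 members passed. The values of 22.5% of all genes tested lay lower in every shPTN sample than in every shCtrl sample, as did those of 4 members. The members were chosen with these values known, and nothing was read from the counts. All 5 members passed the filter on low values in all 6 samples.

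In E0771-LG, the line from a lung metastasis, the same hairpin was compared with its control. Each of the 5 members had a lower mean in E0771-LGshPTN, and the GBPs were furthest apart. Gbp2 was 2.71, 3.38 and 2.63 log2 CPM in shCtrl and 0.38, −0.04 and 0.01 in shPTN. In reads this was 113, 204 and 115 against 27, 17 and 17. The groups lay more than 2 log2 units apart at their nearest samples, and the log2 difference was −2.80 (SE 0.33), to 14.4% of control. Gbp3 was 3.09, 4.21 and 2.87 log2 CPM in shCtrl and 0.58, 0.61 and 0.81 in shPTN. No sample overlapped, and the log2 difference was −2.73 (SE 0.35), to 15.1% of control. Gbp7 was 1.66, 4.01 and 2.70 log2 CPM in shCtrl, a wide spread, and 1.63, 0.98 and 1.48 in shPTN. The lowest control, replicate 1, was only just above the highest knockdown sample, and the log2 difference was −1.43 (SE 0.54), to 37.2% of control.

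Irgm1 was 5.26, 6.17 and 5.13 log2 CPM in E0771-LGshCtrl and 4.54, 5.03 and 5.04 in E0771-LGshPTN. The groups came close without overlapping, with a log2 difference of −0.65 (SE 0.29), to 63.8% of control. Igtp was 2.47, 4.08 and 2.56 log2 CPM in shCtrl and 1.63, 2.99 and 2.61 in shPTN. Its groups overlapped, and the log2 difference was −0.62 (SE 0.52), to 64.9% of control. Without shCtrl replicate 2, the log2 differences were −2.56 for Gbp2, −2.31 for Gbp3, −0.81 for Gbp7, −0.32 for Irgm1 and −0.10 for Igtp. By the limma fit, 2 of 5 members, Gbp2 and Gbp3, passed the adjusted threshold of 0.05 toward lower levels, as 22.1% of the 10405 genes tested did. In the joint fit of 12 samples, 4 members passed. The values of 4 members, and of 26.7% of all genes tested, lay lower in every shPTN sample than in every shCtrl sample. Nothing was read from these counts either. Of the 5 members, 4 passed the filter on low values in all 6 samples, while Gbp2 passed it in the 3 shCtrl samples and 1 shPTN sample.

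With all libraries, the knockdown difference had a larger mean in E0771-LG than in E0771 for each member. As a description, the difference between the lines (E0771-LG minus E0771) was −1.16 log2 units (SE 0.43) for Gbp2, −1.17 (SE 0.46) for Gbp3 and −0.51 (SE 0.65) for Gbp7. It was −0.11 (SE 0.33) for Irgm1 and −0.28 (SE 0.61) for Igtp, and these and that of Gbp7 were within 1 SE of no difference. Without E0771-LGshCtrl replicate 2 the values were −0.92 for Gbp2 and −0.76 for Gbp3, while those of Gbp7, Irgm1 and Igtp turned to 0.10, 0.21 and 0.24.

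The PyMT comparison asked how an antibody against PTN acted on tumors that arise in the mammary gland. In bulk tumors, fewer cells of a type and less RNA per cell cannot be told apart. All 5 members had a lower mean with 3B10, and the groups of 1 member, Gbp2, did not overlap. Gbp2 was 5.11, 5.40 and 5.61 log2 CPM in C44 and 4.89, 4.77 and 4.92 in 3B10. The 3B10 samples were tightly grouped below all controls, with a log2 difference of −0.51 (SE 0.17). Gbp3 was 4.42, 4.44 and 5.12 log2 CPM in C44 and 3.52, 4.71 and 5.32 in 3B10. Here 3B10 replicate 1 was low, and its other replicates lay within or above the control range, with a log2 difference of −0.14 (SE 0.45). Gbp7 was 3.71, 4.37 and 4.88 log2 CPM in C44 and 3.96, 4.01 and 4.26 in 3B10. All of the 3B10 samples lay inside the range of the controls, and the log2 difference was −0.24 (SE 0.30).

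Irgm1 was 5.95, 5.90 and 6.58 log2 CPM in PyMT C44 and 5.09, 5.63 and 6.29 in 3B10. Replicates 1 and 2 of 3B10 were below all controls and replicate 3 was not, with a log2 difference of −0.48 (SE 0.32). Igtp was 5.11, 4.73 and 5.82 log2 CPM in C44 and 3.74, 4.25 and 5.24 in 3B10. It showed the same order of samples, with a log2 difference of −0.81 (SE 0.42). By limma, 0 of 5 members passed the adjusted threshold of 0.05, nor did any of the 11361 genes tested (0%), and 1 member passed an unadjusted 0.05 toward lower levels, as 1.18% of all genes did. Over both directions 2.7% of genes passed unadjusted. The groups of 2.27% of all genes lay apart with 3B10 lower, as did those of 1 member, and nothing was read from these shares. The direction of Gbp3 and Gbp7 rested on single libraries, with a log2 difference of 0.35 for Gbp3 without 3B10 replicate 1 and of 0.04 for Gbp7 without C44 replicate 3. At the other end it was −0.54 for Gbp3 without 3B10 replicate 3 and −0.55 for Gbp7 without C44 replicate 1. With 1 library left out, that of Irgm1 ran from −0.79 to −0.19 and that of Igtp from −1.22 to −0.47, in both without 3B10 replicate 3 and without 3B10 replicate 1.

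The 4T1 comparison put the same antibodies to tumors of an implanted line. The 5 members again had lower means with 3B10, each within the spread of its groups. Gbp2 was 8.74, 9.25 and 7.79 log2 units in C44 and 8.85, 8.16 and 7.97 in 3B10. The groups overlapped almost fully, with a log2 difference of −0.26 (SE 0.38). Gbp3 was 6.84, 7.47 and 6.58 log2 units in C44 and 7.34, 6.48 and 6.21 in 3B10, a log2 difference of −0.29 (SE 0.33). Gbp7 was 6.66, 7.16 and 6.07 log2 units in C44 and 6.11, 6.33 and 6.04 in 3B10, a log2 difference of −0.47 (SE 0.26). For both genes C44 replicate 3 lay inside the range of 3B10, as did C44 replicate 1 for Gbp3. Irgm1 was 6.69, 7.43 and 6.43 log2 units in C44 and 6.97, 6.77 and 6.28 in 3B10, a log2 difference of −0.18 (SE 0.28). Igtp was 7.94, 8.76 and 7.49 log2 units in C44 and 8.43, 7.75 and 7.13 in 3B10, a log2 difference of −0.30 (SE 0.40). For both genes 3B10 replicate 1 lay inside the range of the controls.

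By limma, 0 of 5 members passed the adjusted threshold of 0.05 in 4T1, nor did any of the 11467 genes tested (0%). None passed at an unadjusted 0.05 (0 members), where 3.1% of all genes passed toward lower levels and 6.27% in both directions. The groups of 4.42% of all genes lay apart with 3B10 lower, and those of 0 members. Without 3B10 replicate 3, 3 of 5 members were lower. Without C44 replicate 2, 2 of 5 members were lower, and the log2 differences were 0.06 for Gbp2, −0.03 for Gbp3, −0.21 for Gbp7, 0.11 for Irgm1 and 0.05 for Igtp. At the other end they were −0.67 for Gbp2, −0.75 for Gbp7 and −0.39 for Irgm1 without C44 replicate 3. Those of Gbp3 and Igtp were −0.62 and −0.63 without 3B10 replicate 1. By limma, 0 of 10890 genes differed between the tumor models in their response to 3B10, with 252 at an unadjusted 0.05.

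**Figure D2:**
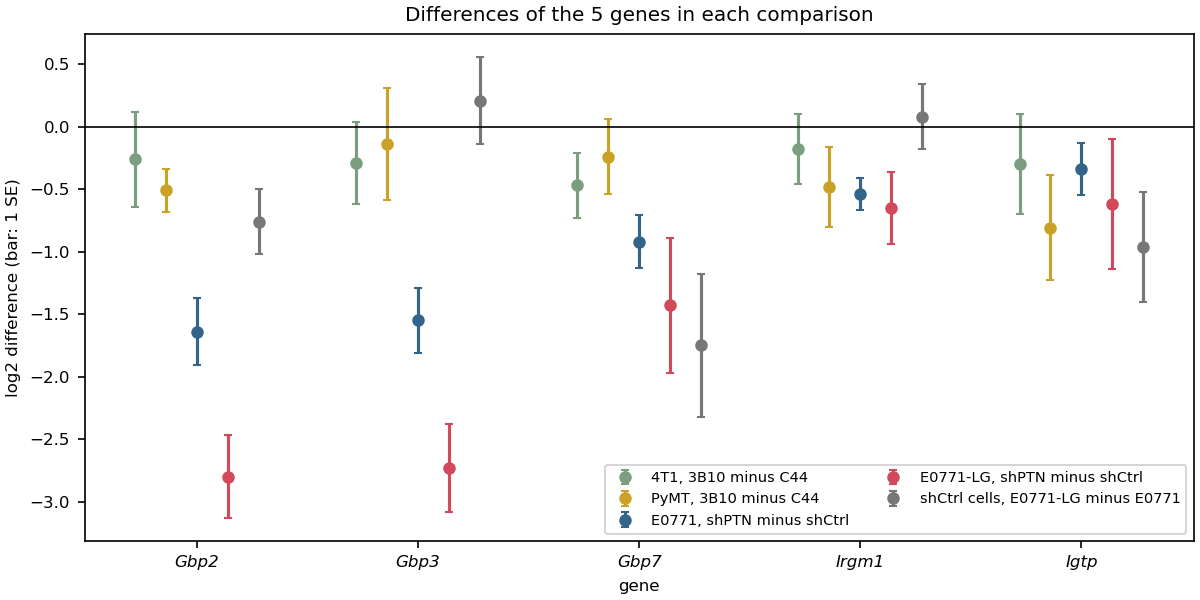
Log2 difference of each of the 5 genes in the 4 experiments (inhibited minus control) and between the control cells (E0771-LGshCtrl minus E0771shCtrl), with bars of 1 SE and 3 samples per group. The points of Gbp2 and Gbp3 for the knockdown in the cell lines lie between −2.80 and −1.55, and those of 4T1 lie within 0.5 of no difference.

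Levels differed among the models. The PyMT groups are bulk tumors and the others cultured cells, so the mix of cells differs between them too. Over the 6 groups measured in log2 CPM, Gbp2 stood in an order in which no neighbours overlapped. It ran from 5.37 ± 0.25 (SD, n = 3) in PyMT C44 through 4.86 ± 0.08 in PyMT 3B10, 3.67 ± 0.37 in E0771shCtrl, 2.91 ± 0.41 in E0771-LGshCtrl and 2.03 ± 0.48 in E0771shPTN to 0.11 ± 0.23 in E0771-LGshPTN. The nearest samples of E0771shCtrl and E0771-LGshCtrl were at 3.46 and 3.38. The log2 difference between these groups was −0.76, or −0.30 after quantile normalization. The share of all genes with such an order was not computed. Gbp3 ran from 4.66 ± 0.40 in PyMT C44 and 4.52 ± 0.91 in PyMT 3B10 through 3.39 ± 0.72 in E0771-LGshCtrl and 3.18 ± 0.35 in E0771shCtrl to 1.63 ± 0.34 in E0771shPTN and 0.66 ± 0.13 in E0771-LGshPTN. Neighbours overlapped among its first 4 groups, and both knockdown groups stood apart. Gbp7 had another order, highest in E0771shCtrl at 4.54 ± 0.41, then PyMT C44 at 4.32 ± 0.59, PyMT 3B10 at 4.08 ± 0.16, E0771shPTN at 3.62 ± 0.24, E0771-LGshCtrl at 2.79 ± 1.18 and E0771-LGshPTN at 1.36 ± 0.34. Its first 3 groups overlapped as neighbours, as did E0771shPTN and E0771-LGshCtrl.

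Irgm1 varied least, from 6.15 ± 0.38 log2 CPM in PyMT C44 through 5.67 ± 0.60 in PyMT 3B10, 5.52 ± 0.57 in E0771-LGshCtrl, 5.44 ± 0.16 in E0771shCtrl and 4.90 ± 0.16 in E0771shPTN to 4.87 ± 0.29 in E0771-LGshPTN. All neighbours overlapped except the E0771 groups. Igtp ran from 5.22 ± 0.55 in PyMT C44 through 4.41 ± 0.76 in PyMT 3B10, 4.00 ± 0.35 in E0771shCtrl, 3.66 ± 0.30 in E0771shPTN and 3.04 ± 0.91 in E0771-LGshCtrl to 2.41 ± 0.70 in E0771-LGshPTN, and every neighbour overlapped. Compared per kb of exon, the genes ranked differently in each model. In PyMT C44 the levels in log2 CPM per kb were 4.20 for Igtp, 4.04 for Gbp2, 3.61 for Irgm1, 2.95 for Gbp3 and 1.83 for Gbp7. In E0771shCtrl they were 2.98 for Igtp, 2.90 for Irgm1, 2.34 for Gbp2, 2.05 for Gbp7 and 1.48 for Gbp3. In E0771-LGshCtrl they were 2.98 for Irgm1, 2.02 for Igtp, 1.68 for Gbp3, 1.58 for Gbp2 and 0.30 for Gbp7. Igtp and Irgm1, the regulatory IRGs, thus led per length in both cell lines. In 4T1 C44, on its own scale per length, the means were 8.59 for Gbp2, 8.07 for Igtp, 6.96 for Gbp3, 6.85 for Irgm1 and 6.63 for Gbp7.

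The control cells gave a comparison of the lines without knockdown, which shares its samples with both knockdown comparisons and is not independent of them. The median of all 10411 genes tested was −0.15 log2 units (E0771-LGshCtrl minus E0771shCtrl), and the values below stand against that shift. The values of the members are again a description, since the samples are among those that chose them. Gbp7 was −1.75 (SE 0.57) and Gbp2 was −0.76 (SE 0.26), both lower in all 3 E0771-LGshCtrl samples than in all 3 E0771shCtrl samples. For Gbp2 the nearest samples were at 3.38 and 3.46 log2 CPM. The share of all genes lying apart in this way was not computed, and nothing was read from this separation. Igtp was −0.96 (SE 0.44), Gbp3 was 0.21 (SE 0.35) and Irgm1 was 0.08 (SE 0.26), all with groups that overlapped. After scaling the samples to equal medians the values were −1.60 for Gbp7, −0.61 for Gbp2, −0.82 for Igtp, 0.36 for Gbp3 and 0.23 for Irgm1. After quantile normalization they were −1.31, −0.30, −0.53, 0.68 and 0.28. By limma 2 of 5 members passed the adjusted threshold toward lower levels, beside 35.3% of all genes called lower and 54.5% in either direction. After quantile normalization or median scaling 0 did by limma, beside 25.7% and 27.2% of all genes called lower, and nothing was read from these counts. Without E0771-LGshCtrl replicate 2 the log2 differences were −2.36 for Gbp7, −1.0 for Gbp2, −1.49 for Igtp, −0.20 for Gbp3 and −0.24 for Irgm1, and those of Gbp3 and Irgm1 thus turned.

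The other genes of these families came from lists that hold no member, and 12 of them were in the table. In E0771-LG, 5 of these 12 met the filter on low values. Gbp9 and Iigp1 met it through the shCtrl samples alone, the group where they were higher, so their values are a description. Gbp9, a GBP on chromosome 5, was 0.10, 1.01 and 0.51 log2 CPM in shCtrl and −3.08, −2.0 and −1.66 in shPTN, from 18, 39 and 26 reads to 2, 4 and 5. The groups lay wide apart, with a log2 difference of −2.79 (SE 0.66). Iigp1, an effector IRG on chromosome 18, had 28, 64 and 23 reads in shCtrl and 5, 0 and 0 in shPTN. Its log2 difference was −5.01 (SE 1.00), a size that depends on the offset added to reads of 0. Neither gene met the filter with any 1 of the shCtrl samples left out.

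Ifi47, another IRG, was 1.04, 2.22 and 0.89 log2 CPM in E0771-LGshCtrl and −1.31, 0.80 and −1.04 in E0771-LGshPTN. It fell by 1.90 (SE 0.61, limma adjusted p 0.0264), lower in 3 of 3 samples, of which 1 met the filter. Without shCtrl replicate 2 it was at −1.48 (limma adjusted p 0.0729), and the call was also lost without shPTN replicate 1 or 3. Irgq, which resembles IRGs but lacks their GTP-binding residues, was 5.39, 5.45 and 5.58 log2 CPM in shCtrl and 5.07, 4.84 and 4.78 in shPTN. It fell by 0.58 (SE 0.13, limma adjusted p 0.00366), lower in 3 of 3 samples. Irgm2, a regulatory IRG whose interval holds most of Igtp, was 2.50, 3.94 and 1.73 log2 CPM in shCtrl and 0.38, 2.19 and 1.22 in shPTN, a log2 difference of −1.46 (SE 0.65, limma adjusted p 0.107). Its groups overlapped, and without shCtrl replicate 2 it was at −0.85 (SE 0.50, limma adjusted p 0.182). Irgq was then at −0.59 (limma adjusted p 0.00518). On chromosome 18, 55.8% of the 258 genes tested were called lower in E0771-LG against 22.1% of all genes, and the part of this in the values of Iigp1 was not tested.

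In E0771, 4 of the 12 family genes were tested, and 0 passed by limma, adjusted or at an unadjusted 0.05. Gbp9 was 1.58, 2.44 and 1.96 log2 CPM in shCtrl and 1.14, 1.59 and 1.90 in shPTN, a log2 difference of −0.44 (SE 0.31, limma adjusted p 0.34). The values overlapped, as they did for Irgm2 at −0.35 (SE 0.26), Ifi47 at 0.20 (SE 0.29) and Irgq at −0.06 (SE 0.13). With 1 library left out these ran from −0.65 to −0.22 for Gbp9, −0.50 to −0.08 for Irgm2 and 0.00 to 0.39 for Ifi47. The knockdown effect differed between the lines (E0771-LG minus E0771) for Ifi47, by −2.10 (SE 0.72, limma adjusted p 0.0347), and for Irgq, by −0.52 (SE 0.18, limma adjusted p 0.0404). For Gbp9 the difference was −2.34 (SE 0.64), a description given how it met the filter. For Irgm2 it was −1.11 (SE 0.78, limma adjusted p 0.286). Without E0771-LGshCtrl replicate 2 these were −1.68 for Ifi47 (limma adjusted p 0.0732), −0.53 for Irgq (limma adjusted p 0.0488) and −0.50 for Irgm2, and Gbp9 did not meet the filter in both lines. The call for Ifi47 was lost without any of 7 single libraries of the 12, and that for Irgq without any of 8. Across all genes 34.7% of those tested differed. In the control cells, 1 of 5 family genes tested was called, beside 35.3% of all genes called lower there and 54.5% in either direction. This was Gbp9, lower in all 3 E0771-LGshCtrl samples, at −1.45 (SE 0.37, limma adjusted p 0.00748). It was at −1.30 (limma adjusted p 0.011) after scaling to equal medians and at −0.95 (limma adjusted p 0.0294) after quantile normalization.

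In the tumors, 0 family genes passed the adjusted threshold by limma. In PyMT, 9 of 12 were tested and 8 had a lower mean with 3B10, with a median of −0.57 log2 units beside 0.05 for all genes, and 2 passed an unadjusted 0.05. These were Gbp9, at −1.30 (SE 0.50, limma adjusted p 1.0), and Ifi47, at −0.99 (SE 0.35, limma adjusted p 1.0). Gbp9 was 4.60, 4.23 and 5.86 log2 CPM in C44 and 2.93, 3.51 and 4.36 in 3B10, where only 3B10 replicate 3 lay within the control range. Ifi47 was 3.67, 4.45 and 4.47 in C44 and 2.60, 3.69 and 3.32 in 3B10, where replicate 2 lay just within it. The other PyMT log2 differences were −0.82 for Gbp4, −0.76 for Gbp2b, −0.57 for Irgm2, −0.55 for Mx2, −0.33 for Iigp1, −0.26 for Gm4951 and 0.35 for Irgq. Iigp1 was at 0.15, Mx2 at 0.00 and Gbp2b at −0.12 without 3B10 replicate 1, and Gm4951 was at 0.09 without C44 replicate 3. Without 3B10 replicate 1 the PyMT median was −0.12 with 6 of 9 lower, and without C44 replicate 3 it was −0.28 with 7 of 9 lower. In 4T1 all 12 were tested, 11 were lower, or 10 after quantile normalization, which moved Irgq from −0.01 to 0.03. The median was −0.44 log2 units beside 0.01 for all genes, and 0 passed an unadjusted 0.05 by limma. Without C44 replicate 2 the median was −0.06 with 8 of 12 lower, beside 0.04 for all genes, and without 3B10 replicate 3 it was −0.15. With all libraries they ranged from −0.64 (SE 0.34) for Gm4951, a relative of Iigp1, to 0.15 for Mx2, which the annotation lists as a polymorphic pseudogene.

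**Figure D3:**
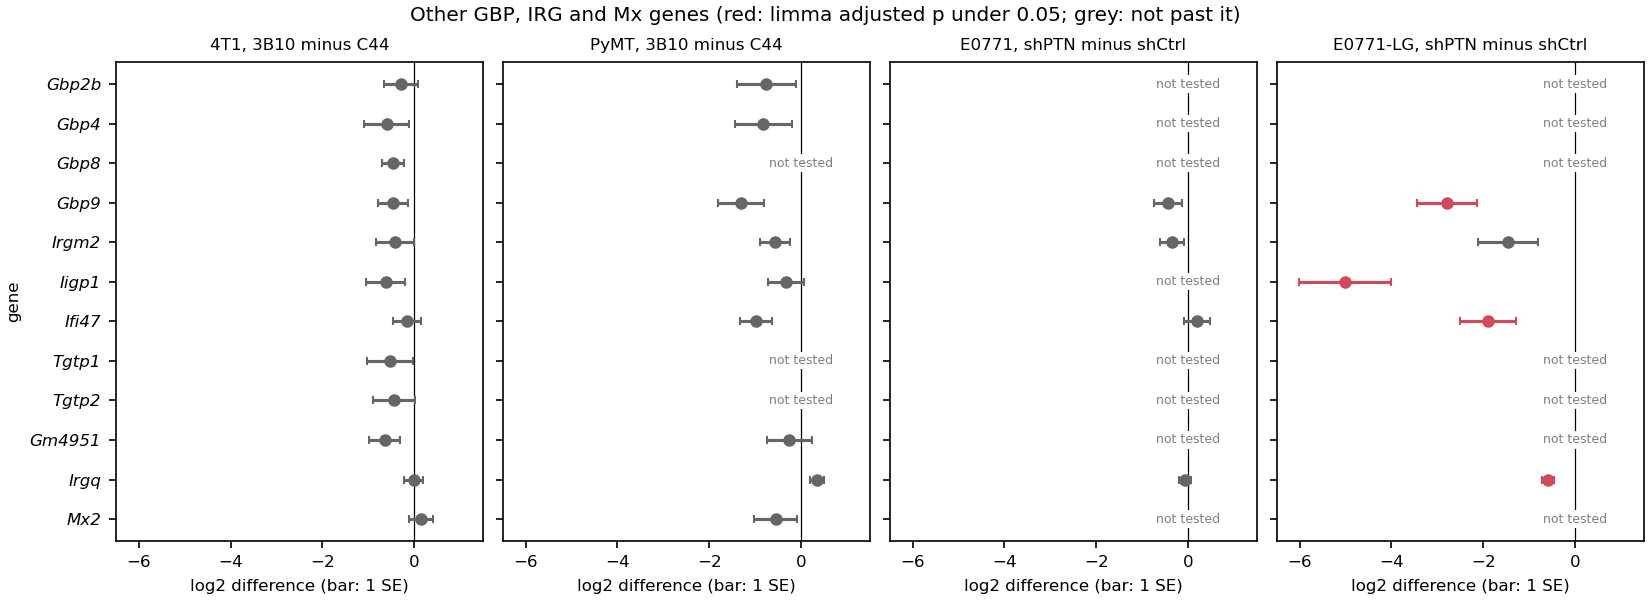
Log2 difference (inhibited minus control) of the 12 other GBP, IRG and Mx genes in the 4 experiments, with 3 samples per group, bars of 1 SE, red for a limma adjusted p under 0.05 and grey for others. The 4 red points, Gbp9, Iigp1, Ifi47 and Irgq, are all in E0771-LG, where Gbp9 and Iigp1 met the filter on low values through shCtrl alone.

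Genes of the interferon pathway were taken from 7 further lists with 61 genes in the table. Like the other lists, these were chosen with earlier results of these data known, so their counts are a description. In E0771, 56 were tested, 10 were called lower (17.9%) and 5 higher (8.93%), beside 11.7% and 8.89% of all genes, with a median log2 difference of −0.12 beside −0.03. In a joint fit of 12 samples 4 were called lower and 3 higher. Of 8 interferon transcription factors tested in the main fit, 4 fell and 1 was called higher. Those that fell were Irf8, which is best known in myeloid cells, at −2.08 (SE 0.37, limma adjusted p 0.00335), Irf7 at −1.21 (SE 0.24, limma adjusted p 0.00605), Stat2 at −0.62 (SE 0.14, limma adjusted p 0.0113) and Irf9 at −0.49 (SE 0.13, limma adjusted p 0.0234). Each was lower in 3 of 3 shPTN samples than in any control. Batf2, the gene called higher, was at 1.35 (SE 0.38) and met the filter on low values through the shPTN samples alone, so its value is a description. Irf1, a direct activator of GBP genes, was at −0.20 (limma adjusted p 0.308).

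Among 7 receptors and kinases in E0771, 1 fell, the type I receptor chain Ifnar1, at −0.40 (SE 0.10, limma adjusted p 0.0192). The interferon-gamma receptor chains Ifngr1, at −0.14, and Ifngr2, at 0.12, did not pass the test (limma adjusted p 0.494 and 0.612). Of 6 inhibitors, Usp18 fell by 0.82 (SE 0.24, limma adjusted p 0.0394) and the phosphatase Ptpn6 rose by 0.99 (SE 0.17, limma adjusted p 0.00294). Of 13 other interferon-gamma targets, 2 fell and 1 rose. The chemokine Cxcl10 fell by 1.12 (SE 0.24, limma adjusted p 0.01), the proteasome activator Psme1 fell by 0.43 (SE 0.12, limma adjusted p 0.0302), and the immunoproteasome subunit Psmb8 rose by 0.44 (SE 0.13, limma adjusted p 0.0409). Of 11 genes of the conjugation system that brings GBPs and IRGs to vacuoles, 2 rose, Gabarap at 0.42 (SE 0.08, limma adjusted p 0.00505) and Map1lc3a at 0.42 (SE 0.13, limma adjusted p 0.0405). Of 6 enzymes that process CaaX ends, by which some GBPs are anchored in membranes, 2 fell. They were Pggt1b, a subunit of the enzyme that adds the geranylgeranyl lipid, at −0.50 (SE 0.14, limma adjusted p 0.0319), and the protease Zmpste24 at −0.44 (SE 0.11, limma adjusted p 0.0138). Of 5 inflammasome genes 0 passed by limma. Each gene named here as rising or falling had groups that did not overlap. The calls for Irf8, Irf7, Stat2, Ptpn6, Cxcl10 and Gabarap held with any 1 library left out. Pathway genes called lower numbered 4 without shCtrl replicate 2, 6 without shCtrl replicate 3 and 5 without shPTN replicate 3, and the call for Irf9 was lost without either of the first 2.

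In E0771-LG, 56 pathway genes were tested, 9 fell and 9 rose (16.1% each), both shares below those of all genes (22.1% lower and 24.3% higher), with a median log2 difference of 0.02 beside 0.05. Without shCtrl replicate 2, 10 were called lower and 11 higher. Of 8 transcription factors 1 fell, Irf9, at −0.75 (SE 0.22, limma adjusted p 0.0171). Irf1 was at −0.19 (limma adjusted p 0.422), Irf8 at 0.00 (SE 0.40, limma adjusted p 0.995), Stat2 at −0.07 (SE 0.58, limma adjusted p 0.928) and Irf7 at −1.53 (SE 0.56, limma adjusted p 0.0656). The call for Irf9 was lost without shPTN replicate 1. Without shCtrl replicate 2, Irf9 was at −0.50 (limma adjusted p 0.0372), Irf7 at −0.98 (limma adjusted p 0.0337), Irf1 at 0.03, Irf8 at 0.32 (limma adjusted p 0.511) and Stat2 at 0.57 (limma adjusted p 0.0787). The effects on Irf8 differed between the lines by 2.08 (SE 0.59, limma adjusted p 0.0171), or 2.39 without that library (limma adjusted p 0.00687). For Stat2 this difference was 0.55 (limma adjusted p 0.522), or 1.19 without that library (limma adjusted p 0.006). Among 7 receptors and kinases the kinase Jak1 fell, at −0.53 (SE 0.10, limma adjusted p 0.00186), while Ifngr1 and Ifngr2, at 0.09 and 0.13, did not pass. Of 6 inhibitors Ptpn6 rose by 0.52 (SE 0.19, limma adjusted p 0.0428), with groups that overlapped, and Usp18 was at −2.74 (SE 1.00, limma adjusted p 0.0708), or −1.92 without shCtrl replicate 2.

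Of 13 other interferon-gamma targets in E0771-LG, 4 fell and 3 rose, in genes of antigen presentation and adhesion. The peptide loading factor Tapbp fell by 0.71 (SE 0.22, limma adjusted p 0.0286), or by 0.46 without shCtrl replicate 2, the immunoproteasome subunit Psmb10 by 0.71 (SE 0.13, limma adjusted p 0.00164), and the adhesion molecules Vcam1 by 0.70 (SE 0.20, limma adjusted p 0.0154) and Icam1 by 0.62 (SE 0.12, limma adjusted p 0.00171). The peptide transporter Tap2 rose by 0.93 (SE 0.17, limma adjusted p 0.00148), Psme1 by 0.83 (SE 0.19, limma adjusted p 0.00622), and B2m by 0.42 (SE 0.15, limma adjusted p 0.0474), the last with groups that overlapped. Of 11 vacuole conjugation genes 4 rose (36.4%, beside 24.3% of all genes) and 1 fell. They were Map1lc3a at 1.02 (SE 0.15, limma adjusted p 0.000488), Map1lc3b at 0.54 (SE 0.10, limma adjusted p 0.00185), Gabarap at 0.48 (SE 0.11, limma adjusted p 0.00398) and Gabarapl2 at 0.34 (SE 0.11, limma adjusted p 0.0238), beside Atg12 at −0.55 (SE 0.14, limma adjusted p 0.00888). Of 6 CaaX enzymes, Pggt1b fell by 1.80 (SE 0.18, limma adjusted p 6.86e-05) and Zmpste24 by 0.86 (SE 0.13, limma adjusted p 0.000401). Of 5 inflammasome genes, the DNA sensor Aim2 rose by 0.47 (SE 0.11, limma adjusted p 0.00653). Apart from Ptpn6 and B2m, all of these had groups that did not overlap. With any 1 library left out, the calls held for Jak1, Psmb10, Icam1, Tap2, Psme1, Map1lc3a, Map1lc3b, Gabarap, Atg12, Pggt1b, Zmpste24 and Aim2. Pggt1b and Atg12, like Iigp1, lie on chromosome 18, whose part in their results was not tested.

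In the control cells 55 pathway genes were tested, 21 were called lower in E0771-LGshCtrl (38.2%) and 10 higher (18.2%), beside 35.3% and 19.2% of all genes, with a median of −0.16 beside −0.15. After quantile normalization 16 were called lower and 15 higher, beside 25.7% and 27.2% of all genes, and after median scaling 14 and 14, beside 27.2% and 27.4%. Irf9 was at −0.73 (limma adjusted p 0.011), while Irf1 was at 0.51 (limma adjusted p 0.0369), both with groups that did not overlap. Without E0771-LGshCtrl replicate 2, Irf1 was at 0.29 (limma adjusted p 0.112). By list, calls lower and higher were 2 and 0 of the receptors and kinases, 2 and 2 of the factors (Batf2, called higher, met the filter on low values through E0771-LGshCtrl alone), 1 and 2 of the inhibitors, and 6 and 3 of the interferon-gamma targets. They were 7 and 1 of the vacuole conjugation genes, 2 and 1 of the CaaX enzymes, and 1 and 1 of the inflammasome genes. In 4T1, 61 pathway genes were tested and 44 were lower with 3B10 (72.1%, beside 48.4% of all genes), with 0 past the adjusted threshold by limma and 7 at an unadjusted 0.05, and a median of −0.15 log2 units beside 0.01. Lower means were seen for 7 of 7 receptors and kinases, 8 of 9 factors, 4 of 6 inhibitors, 9 of 14 targets, 7 of 11 conjugation genes, 2 of 6 CaaX enzymes and 7 of 8 inflammasome genes. In PyMT, 59 were tested and 37 were lower (62.7%, beside 39.0% of all genes), with 0 past the adjusted threshold by limma and 2 at an unadjusted 0.05, Psmb10 and Batf2, and a median of −0.08 beside 0.05. Batf2 met the filter on low values through C44 alone. There the same lists had 4 of 7, 8 of 9, 6 of 6, 10 of 12, 4 of 11, 0 of 6 and 5 of 8 genes lower.

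Markers of other cell types were summed in each tumor, since leukocytes make GBPs and IRGs too. In 4T1, 9 of 9 T and NK cell markers had a lower mean with 3B10 (median −1.27 log2 units), and their summed level was 172, 200 and 189 in C44 and 146, 97.7 and 43.1 in 3B10. Of macrophage and dendritic cell markers 10 of 10 were lower (median −0.57), with sums of 9350, 6420 and 8090 in C44 and 3180, 6340 and 3990 in 3B10. In both lists every 3B10 sample was below every control. Of neutrophil markers 4 of 4 were lower (median −0.68), with sums of 1120, 1050 and 1880 in C44 and 1160, 734 and 579 in 3B10. Of pan-leukocyte markers 8 of 8 were lower (median −0.41), with sums of 2510, 2310 and 2520 in C44 and 1890, 2030 and 1560 in 3B10. In this list, too, every 3B10 sample was below every control. Endothelial markers were lower in 6 of 6 genes (median −0.22), with sums of 127, 295 and 194 in C44 and 154, 252 and 117 in 3B10. Fibroblast markers were lower in 2 of 8 (median 0.28), with sums of 1500, 2110 and 1370 in C44 and 1200, 4390 and 1920 in 3B10. By contrast, 7 of 7 epithelial markers tested were higher (median 0.76), with sums of 3290, 3590 and 3570 in C44 and 5080, 4750 and 5270 in 3B10.

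No marker passed the adjusted threshold by limma in 4T1 (0), while at an unadjusted 0.05 there were 7 T and NK cell, 5 macrophage and dendritic cell, 3 neutrophil and 5 pan-leukocyte markers lower and 6 epithelial markers higher. Of all 11467 genes tested, 355 were lower and 364 higher at that threshold. The most abundant were Nkg7 in the T and NK cell list (19.5% of its sum), Lyz2 (87.0%), S100a9 (48.6%), Tyrobp (36.3%) and, among epithelial markers, Krt18 (56.3%). Their part in the results for the members was not tested.

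In PyMT the marker lists moved less. T and NK cell markers were lower in 2 of 3 tested (median −0.01), with sums of 8.55, 10.3 and 9.27 in C44 and 8.84, 6.4 and 12.9 in 3B10. Macrophage and dendritic cell markers were lower in 7 of 10 (median −0.06), with sums of 646, 847 and 358 in C44 and 738, 448 and 582 in 3B10. Both lists overlapped between groups. Neutrophil markers were lower in 2 of 3 (median −0.17), with sums of 22.1, 34.5 and 6.24 in C44 and 18.6, 12.9 and 15.1 in 3B10. Pan-leukocyte markers were lower in 4 of 8 (median −0.02), with sums of 169, 168 and 128 in C44 and 206, 137 and 130 in 3B10. Endothelial markers were lower in 2 of 6 (median 0.08), with sums of 142, 169 and 104 in C44 and 160, 169 and 113 in 3B10. Fibroblast markers were lower in 7 of 8 (median −0.17), with sums of 2280, 3460 and 1210 in C44 and 2280, 1710 and 1730 in 3B10. Epithelial markers were lower in 5 of 8 (median −0.07), with sums of 5730, 5530 and 3810 in C44 and 4500, 4960 and 4040 in 3B10. The most abundant were Lck (39.5%), Cd14 (40.4%), Laptm5 (33.9%) and Krt8 (29.8%), and the T and NK cell markers Cd3e, Cd3d, Cd8b1, Nkg7 and Prf1 were under 1 CPM in every PyMT sample. Their part in the results for the members was not tested here either.

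**Figure D4:**
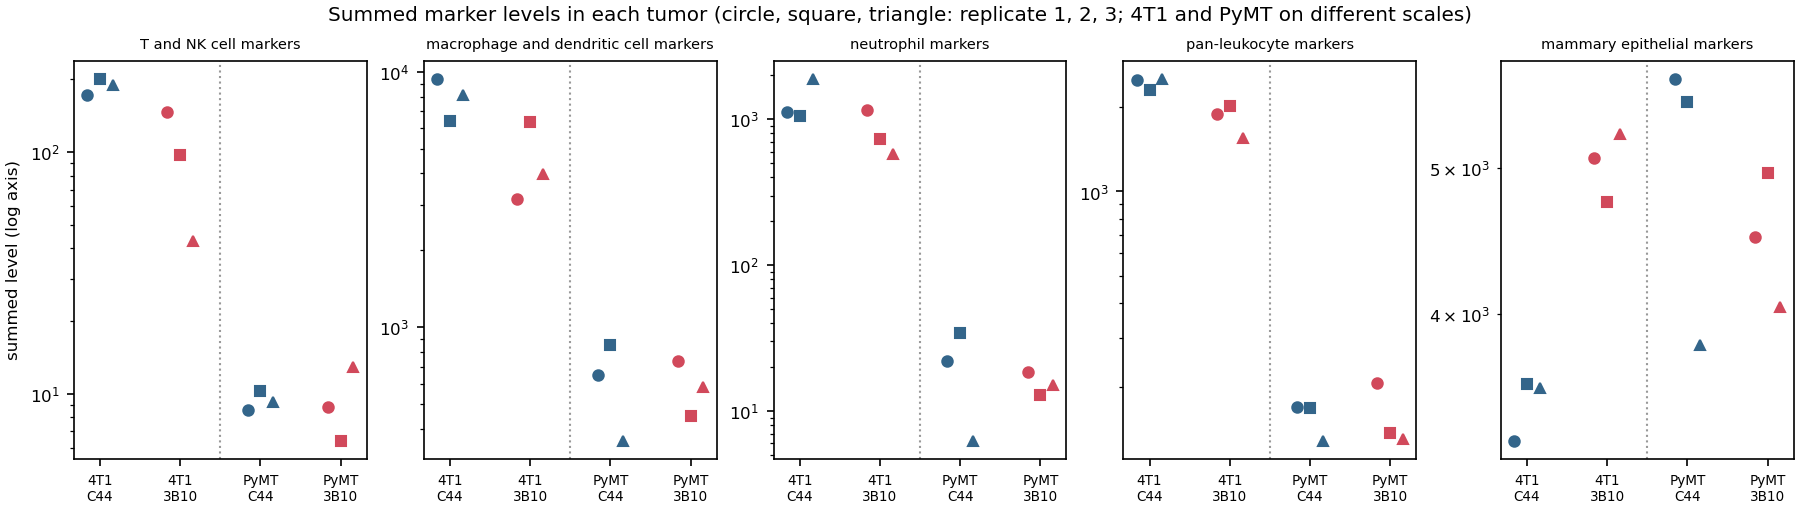
Summed level of 5 lists of cell type markers in each tumor sample on a log axis, off the log2 scale, in CPM for PyMT and in units per length for 4T1, with blue for C44 and red for 3B10. In 4T1 the macrophage and dendritic cell sums were 6420 to 9350 in C44 and 3180 to 6340 in 3B10.

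In the cultured cells the members were expressed while many leukocyte markers were at or near their lowest values. The T and NK cell marker Lck, the macrophage list's Cd68, Cd14, Lyz2 and Mertk, and the pan-leukocyte list's Coro1a, Laptm5 and Itgb2 were above that, with Lyz2 at a mean of 19.0 CPM in E0771 and Laptm5 at 64.7 CPM in E0771-LG. In E0771, 8 of 9 T and NK cell markers, all but Lck, were under 1 CPM in every sample, as were Adgre1, Csf1r, Itgam, Itgax, Mrc1 and Fcgr1 of the macrophage list and Ptprc, Cd53, Cd52, Tyrobp and Fcer1g of the pan-leukocyte list. Tyrobp was at the lowest value in all E0771 and all E0771-LG samples, Cd3e and Itgam in all E0771 samples, and Adgre1 in all E0771-LG samples. In E0771-LG, 5 of 9 T and NK cell markers, 5 of 10 macrophage and dendritic cell markers (Adgre1, Csf1r, Itgam, Itgax and Fcgr1, but not Mrc1) and the same 5 of 8 pan-leukocyte markers were under 1 CPM throughout. Epithelial markers were sparse in both lines, since Cdh1, Krt19, Krt14 and Krt5 were under 1 CPM in every sample of each, while Krt8 gave 90.2% of the E0771 sum and 93.4% of the E0771-LG sum.

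Marker lists also moved with the knockdown in the cells. Of all genes tested in E0771, 8.89% were called higher and 11.7% lower. In E0771, 5 of 5 fibroblast markers tested were called higher by limma (median 1.61 log2 units), with summed levels of 74.8, 101 and 86.3 CPM in shCtrl and 331, 293 and 330 in shPTN, of which Col3a1 gave 43.2%. Of 3 pan-leukocyte markers tested 2 were called higher, with sums of 34.9, 39.9 and 35.0 in shCtrl and 68.5, 51.5 and 60.7 in shPTN, and Itgb2 as the most abundant. Both sums stood wholly apart between the groups, as did those of T and NK cell markers, at 6.2, 3.97 and 5.54 against 8.18, 8.2 and 8.25, and of macrophage and dendritic cell markers, at 24.2, 42.2 and 31.5 against 60.4, 50.5 and 53.4. In these 2 lists 1 of 1 and 2 of 4 markers tested were called higher, the other 2 macrophage markers, Cd68 and Cd14, being lower at an unadjusted 0.05 and the median of that list 0.08. Neutrophil markers (0 of 1 called by limma), endothelial markers (0 of 2) and epithelial markers (0 of 2) had sums that overlapped, and at an unadjusted 0.05 the count was 0, 1 and 1.

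In E0771-LG, 3 of 3 epithelial markers tested were called higher (median 1.57), with sums of 158, 204 and 164 CPM in shCtrl and 424, 565 and 516 in shPTN. T and NK cell markers were called higher in 3 of 3 tested (median 1.57), with sums of 4.51, 6.69 and 3.5 in shCtrl and 9.85, 13.0 and 13.5 in shPTN, of which Lck gave 64.9%. Endothelial markers were called higher in 2 of 3 tested, with sums of 9.02, 12.6 and 8.44 in shCtrl and 25.1, 30.5 and 26.4 in shPTN. These 3 sums were higher in every shPTN sample. Some of the markers, such as Cd3d, Cd8b1 and Krt18, met the filter on low values through shPTN alone, so the counts are a description. Pan-leukocyte sums were lower in every one, at 118, 124 and 116 in shCtrl and 79.6, 93.4 and 99.4 in shPTN, with 1 of 3 markers tested called lower, Laptm5, which gave 61.6% of the sum. The other 2, Coro1a and Itgb2, were higher at an unadjusted 0.05, and the median of the list was 0.38. Fibroblast sums were 92.0, 145 and 107 in shCtrl and 58.3, 66.2 and 73.6 in shPTN, where 2 of 6 markers tested were called lower and 1 higher. Col1a1, one of those lower, met the filter through shCtrl alone. Macrophage and dendritic cell sums were 28.3, 32.8 and 31.8 in shCtrl and 23.0, 28.9 and 29.6 in shPTN, an overlap, with 2 of 5 markers tested called lower and 2 higher. Neutrophil sums overlapped, at 2.83, 5.46 and 4.62 in shCtrl and 3.69, 8.48 and 5.62 in shPTN. Of all genes tested in E0771-LG, 24.3% were called higher and 22.1% lower. The part of these lists in the results for the members was not tested.

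The members were compared with the 9789 genes tested in all 4 experiments, by Pearson's r over the 24 samples after subtracting the mean of each experiment. These points share the differences between groups, their libraries and their depth, so the values are a description. Irgm1 was most like Igtp (r 0.93, rho 0.83), then Parp9 (r 0.89, rho 0.87) and Oas3 (r 0.88, rho 0.87). Igtp was most like Irgm1, then Tap1 (r 0.92, rho 0.94) and Irgm2 (r 0.88, rho 0.81). With group means subtracted in place of experiment means, Irgm1 and Igtp had an r of 0.94. Gbp2 was most like Pi4k2a (r 0.93, rho 0.92), Cyth3 (r 0.91, rho 0.91) and Cmpk2 (r 0.91, rho 0.88). For these genes the r was 0.79, 0.58 and 0.60 with group means subtracted. Gbp3 was most like Cmpk2 (r 0.90, rho 0.92), Gbp2 (r 0.90, rho 0.90) and Oasl2 (r 0.88, rho 0.86). For Gbp3 and Gbp2 the r was 0.50 with group means subtracted, so much of their likeness lay in the difference between groups. The r of Gbp3 was then 0.63 with Cmpk2 and 0.75 with Oasl2. Gbp7 was most like Eif2ak2 (r 0.90, rho 0.83), Fam168a (r 0.88, rho 0.87) and Parp9 (r 0.87, rho 0.80). For these the r was 0.84, 0.78 and 0.82 with group means subtracted. Between the families, pairs with Igtp had the lowest values, with an r of 0.53 and a rho of 0.49 for Gbp2, 0.61 and 0.49 for Gbp7, and 0.63 and 0.54 for Gbp3. Pairs with Irgm1 were higher, with an r of 0.79 and a rho of 0.80 for Gbp3, 0.75 and 0.68 for Gbp7, and 0.69 and 0.78 for Gbp2, beside 0.79 and 0.74 for Gbp3 and Gbp7 and 0.83 and 0.80 for Gbp2 and Gbp7.

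**Figure D5:**
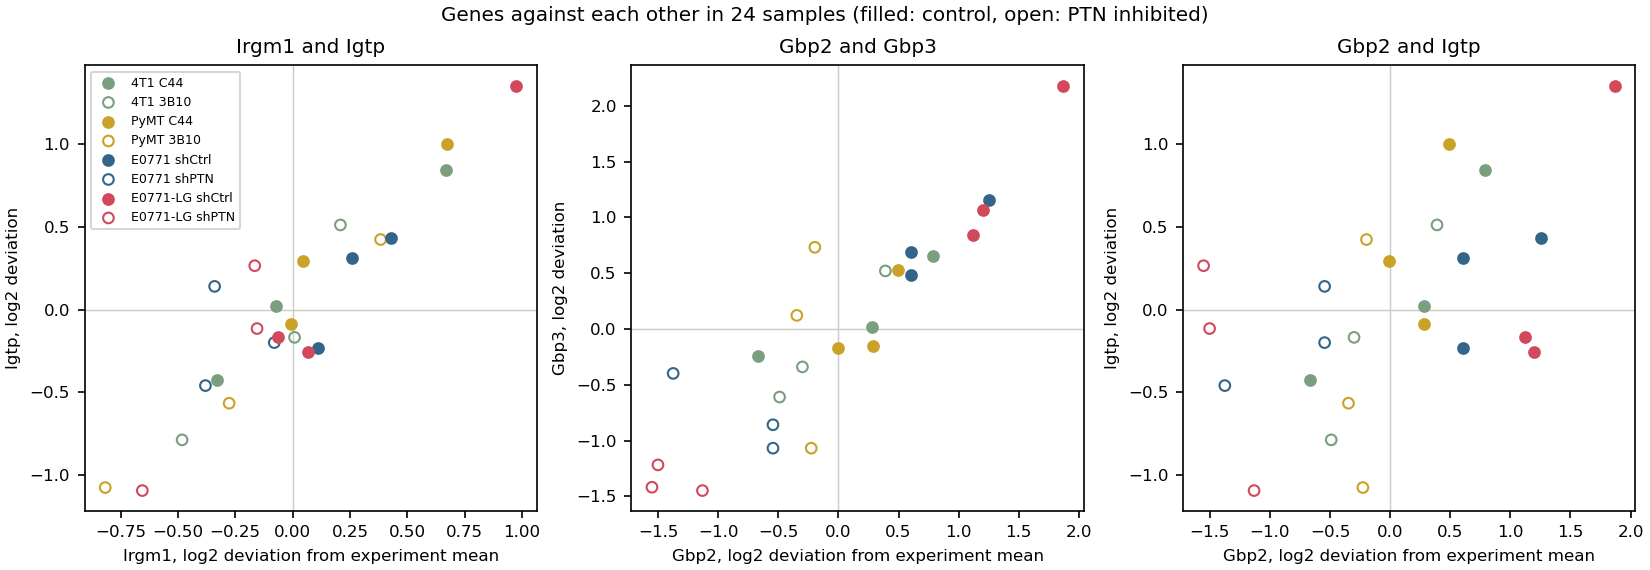
Log2 deviation from the mean of the experiment for Irgm1 against Igtp, Gbp2 against Gbp3 and Gbp2 against Igtp in 24 samples, filled for control and open for PTN-inhibited samples. The first pair has an r of 0.93 and the last an r of 0.53.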

How the data were processed

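RNA of 24 mouse samples was sequenced, and per the submitters' processing notes reads were aligned with HISAT2 to mm10 (GRCm38) and counted with featureCounts, with edgeR and limma named and no versions given. The deposited table holds log2 values for 12091 genes. By their steps, those of 18 samples are log2 CPM to which 0.5 reads had been added, and those of 4T1 are log2 values on a scale per length that the authors do not state. So that all experiments had the same test, edgeR was not used, and limma 3.58.1 in R 4.3.3 (trend and robust options) was fitted to the values of each experiment alone, with Benjamini-Hochberg adjustment over all genes tested. Each value was taken off its log2 scale and the sample minimum subtracted, genes with 1 or more in 3 or more of 6 samples were tested, and a gene was called at an adjusted p under 0.05. Interactions used the 12 samples of both lines or both tumor models. Positions came from GENCODE M21 and promoters from RefSeq. Python 3.11.15, numpy 2.4.6, pandas 2.3.3, scipy 1.17.1 and matplotlib 3.10.9 were used.

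The members and the 17 gene lists were chosen with earlier results of these data known. Named were the 5 members, Ptn, all other family genes, of each pathway list up to 4 genes per direction with an adjusted p under 0.05 and the largest log2 difference in a cell line, Irf1, Irf9, Ifngr1 and Ifngr2, the most abundant and the lowest defining markers, and the 3 genes most like each member. Neighbouring genes, shares by chromosome and 2 genes of the interaction were chosen after their values were seen. Listed genes outside the table, such as Gbp5, Gbp6, Gbp10, Mx1, Ido1, Cd4 and Ifng, were not analysed here. A further pathway gene is not reported here and is left out of the list counts. Alternatives covered filters, pseudocounts, scaling, a joint fit, the trend, a stricter threshold, a replicate block and each library left out, and those for the interactions were chosen after seeing the data.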

Additional observations from a re-analysis of the deposited data

Results flagged for a closer look

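The knockdown effect of 16 of 60 list genes tested differed between E0771-LG and E0771 by the limma interaction, where 34.7% of all genes did. Values below are the effect in E0771-LG minus that in E0771, in log2 units, for the 14 named genes. In the GTPase families it was −2.34 for Gbp9 (SE 0.64), −2.10 for Ifi47 (SE 0.72, limma adjusted p 0.0347) and −0.52 for Irgq (SE 0.18, limma adjusted p 0.0404), each lower in E0771-LG. The call for Ifi47 was lost without E0771shCtrl replicate 1 or 3, E0771shPTN replicate 2 or 3, E0771-LGshCtrl replicate 2, or E0771-LGshPTN replicate 1 or 3. That for Irgq was lost without any 1 E0771shCtrl replicate, E0771shPTN replicate 2 or 3, E0771-LGshCtrl replicate 3, or E0771-LGshPTN replicate 2 or 3. That for Gbp9 was lost with a pseudocount of 1. Among factors and kinases it was −0.57 for Jak1 (SE 0.14, limma adjusted p 0.00616), 2.08 for Irf8 (SE 0.59, limma adjusted p 0.0171) and −1.93 for Batf2 (SE 0.52). Gbp9 in E0771-LG and Batf2 in E0771 met the filter on low values only through the group where they were higher, so their values are a description. Irf8 had fallen in E0771 and not in E0771-LG. Among interferon-gamma targets it was 1.25 for Psme1 (SE 0.24, limma adjusted p 0.00178), −0.84 for Psmb10 (SE 0.24, limma adjusted p 0.0152) and 0.89 for Tap2 (SE 0.23, limma adjusted p 0.00827). Psme1 had fallen in E0771 and risen in E0771-LG. Among vacuole conjugation genes it was 0.60 for Map1lc3a (SE 0.20, limma adjusted p 0.0319), 0.56 for Map1lc3b (SE 0.14, limma adjusted p 0.00588) and 0.69 for Gabarapl2 (SE 0.23, limma adjusted p 0.0278). It was −1.30 for Pggt1b (SE 0.25, limma adjusted p 0.00156) and 0.50 for Aim2 (SE 0.15, limma adjusted p 0.0197). The other 2 list genes called, Atg7 and Psme2, fell outside the rule for named genes.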

How the results depend on the processing

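Over the 18 alternatives, 5 of 5 members were lower in E0771 in each, and 4 or 5 in E0771-LG. Of the leading results, 516 of the values under alternatives stayed within 1.5 times of the reported count and 48 did not, and of those for single genes 1741 kept direction and call, 133 lost a call, 12 gained one, 19 turned direction and 11 moved. In E0771, pathway genes called higher (5) were 3 with no filter, 3 in a joint fit of 12 samples and 3 without the trend, and those called lower (10) were 4 in the joint fit. Members past the threshold in the joint fit were 2 in E0771 (from 4) and 4 in E0771-LG (from 2). The stricter filter left 1 family gene called lower in E0771-LG (from 4, of which Gbp9 and Iigp1 met the main filter through shCtrl alone) and 0 in the control cells (from 1), where no filter gave 2 and a replicate block 2. Members called in the control cells (2) were 1 with no filter, 0 by limma after quantile normalization and 0 after median scaling. At an adjusted threshold of 0.01, stricter by construction, all genes called were 971 in E0771 (from 2140) and 3016 in E0771-LG (from 4826), pathway genes in E0771 were 2 lower and 2 higher, members were 2 in E0771 and 0 in the control cells, and pathway genes lower in the control cells were 11 (from 21). Quantile normalization turned Irgq in 4T1 to 0.03 and Ifi47 and Irgq in the control cells to 0.24 and 0.09, the last to 0.07 after median scaling. Apart from the stricter settings, the cause was not tested.

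With each library left out in turn, so with fewer samples, members lower were 2 to 5 in 4T1, 3 to 5 in PyMT and 3 to 5 in the control cells. Members past the threshold in the control cells were 0 to 3, family genes called lower there 1 to 2 and in E0771-LG 1 to 4. Pathway genes in E0771 were 4 to 11 lower and 2 to 5 higher. All genes called were 1164 to 2139 in E0771 and 3206 to 5113 in E0771-LG, and list genes with a different effect between lines 10 to 17. Log2 differences in 4T1 ran from −0.66 to 0.02 for Gbp2b, −0.39 to 0.10 for Ifi47, −0.16 to 0.17 for Irgq, −0.06 to 0.29 for Mx2, −1.02 to −0.18 for Gbp4, −0.77 to −0.18 for Gbp9, −0.84 to −0.02 for Irgm2, −0.92 to −0.07 for Tgtp1, −0.90 to −0.05 for Tgtp2, −0.65 to −0.20 for Gbp8, −0.97 to −0.22 for Iigp1 and −0.97 to −0.33 for Gm4951. In PyMT they ran from −0.65 to 0.15 for Iigp1, −0.52 to 0.09 for Gm4951, −0.83 to 0.00 for Mx2, −1.18 to −0.28 for Gbp4, −1.34 to −0.12 for Gbp2b, −0.75 to −0.25 for Irgm2 and −1.68 to −0.82 for Gbp9. In E0771 they ran from −0.54 to −0.20 for Igtp, −0.15 to 0.09 for Irgq and −0.23 to 0.00 for Ifngr1, in E0771-LG from −0.34 to 0.03 for Irf1, and in the control cells from −0.20 to 0.47 for Gbp3 and −0.24 to 0.28 for Irgm1. Replicate numbers did not pair samples, and voom was not run for 4T1, which has no whole reads, so 17 alternatives applied there. Depth limits the GBP members in E0771-LGshPTN, with 17 to 27 reads for Gbp2, 27 to 31 for Gbp3 and 35 to 65 for Gbp7.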

Other observations

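The nearest protein-coding genes of the table on each side of the members, leaving out the genes of the GTPase families themselves, were looked up after the values were seen. Family genes lie closer, such as Gbp2b between Gbp3 and Gbp2, and Irgm2, which overlaps Igtp. On chromosome 3, Kyat3, 63.0 kb after Gbp2, fell by 1.22 in E0771 (limma adjusted p 0.00164) and was at 0.51 in E0771-LG (limma adjusted p 0.262). Pdlim5, 134.6 kb before Gbp7, was at 0.29 in E0771 (limma adjusted p 0.143) and −0.33 in E0771-LG (limma adjusted p 0.0958). On chromosome 11, Mrpl22, about 20 kb before Igtp, rose by 0.70 in E0771-LG (limma adjusted p 0.00097) and was at −0.09 in E0771 (limma adjusted p 0.78). Zfp692, 99.5 kb after Igtp, rose by 0.88 in E0771-LG (limma adjusted p 0.00273) and was at −0.77 in E0771 (limma adjusted p 0.0637). Psme2b, 73.7 kb after Irgm1, was at 0.04 in E0771 (limma adjusted p 0.856) and 0.31 in E0771-LG (limma adjusted p 0.4), and Trim7, 9.8 kb before Irgm1, was tested only in the tumors, at 0.03 in 4T1 and 0.14 in PyMT (limma adjusted p 0.995 and 1.0). Over all genes tested on chromosome 3 the median log2 difference was −0.04 in E0771 and 0.06 in E0771-LG, and on chromosome 11 it was −0.02 in both. Between the control cells (E0771-LGshCtrl minus E0771shCtrl) it was −0.24 on chromosome 3 and 0.25 on chromosome 11, beside −0.15 for all genes.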
